A study of Mus musculus with 12 samples.

Results

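The immunoglobulin variable (V) segments were followed across 12 RNA libraries that are labelled as hematopoietic stem cells of C57BL/6 mice. Members were the table entries whose Ensembl identifier carries a mouse symbol beginning Ighv, Igkv or Iglv and the annotated type of a functional V gene. There were 204 of them among 35275 genes, namely 104 heavy chain, 97 kappa light chain and 3 lambda light chain segments. Entries of the same symbols annotated as pseudogenes (8) or as another gene type (2) were left out.

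The series compared mice without thrombopoietin (KO, Thpo-/-) with wild-type mice (WT, Thpo+/+), each with or without Romiplostim, a drug that activates the thrombopoietin receptor. The groups were KO mice given Romiplostim, untreated KO mice, WT mice given Romiplostim and untreated WT mice, with 3 libraries each. Romiplostim was given into a vein at 100 µg/kg per day for 10 days, and the protocol names PBS for mice that the labels call untreated. Per the design text each group was sequenced on a run of its own, which leaves run confounded with group, and no label says whether libraries came from separate animals. The p-values therefore measure the spread between these libraries, which may be technical. The labels give no age, no sorting markers and no further description of the Thpo allele.

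A V segment encodes most of the antigen-binding domain of an antibody chain. In developing B cells the RAG recombinase joins a V segment of the heavy locus to a D and a J segment, and then a V segment of a light chain locus to a J segment. A given B cell and its descendants thus mostly transcribe 1 functional heavy and 1 functional light chain segment, and plasma cells, the antibody-secreting stage, make these transcripts in very large amounts. Blood stem cells carry these loci unrearranged.

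All heavy segments lie on chromosome 12, between positions 113578504 and 116000461 on the minus strand of GRCm38. The kappa segments lie on chromosome 6, between positions 67555497 and 70704177 on both strands, and the lambda segments lie on chromosome 16, between positions 19085017 and 19260859 on the minus strand. Their annotated exons are short, with a median of 359 bases and a range of 294 to 501 bases. The ends of the coding sequence are shown for 6 segments that led a library below, as examples of what the members have in common (60 bases, 5′ to 3′, from the GENCODE M21 transcripts on GRCm38, with matches to TANTNCTGT in capitals). The motif spans the tyrosine and cysteine codons that stand just before the joining point.
Ighv5-17, chr12:113859149-113859208, minus strand: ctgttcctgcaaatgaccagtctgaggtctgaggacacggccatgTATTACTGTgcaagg
Ighv1-64, chr12:115507545-115507604, minus strand: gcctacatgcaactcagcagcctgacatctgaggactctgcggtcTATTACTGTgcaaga
Ighv3-6, chr12:114288152-114288211, minus strand: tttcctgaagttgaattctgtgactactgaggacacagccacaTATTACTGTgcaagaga
Igkv6-15, chr6:70406469-70406528, minus strand: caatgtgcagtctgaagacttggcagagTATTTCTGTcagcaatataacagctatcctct
Igkv17-121, chr6:68037259-68037318, plus strand: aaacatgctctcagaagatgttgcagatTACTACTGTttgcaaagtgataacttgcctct
Igkv9-124, chr6:67942074-67942133, minus strand: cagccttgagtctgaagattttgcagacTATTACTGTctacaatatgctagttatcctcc
Searched on the coding strand in the last 80 bases of the transcript, the motif was found in 152 of 204 V segments (74.5%) and in 0.799% of 139647 other GENCODE M21 transcripts of at least 80 bases. By class it was in 95 heavy, 55 kappa and 2 lambda segments.

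V segments resemble each other, which bears on how reads are shared among them. A run of at least 150 bases, the read length, was shared with another V segment by 18 of the 204, of which 8 were heavy and 10 kappa. The levels of these 18 are uncertain, since how the authors' counting divided such reads is not given in the sources used here. Other levels may be uncertain too, since only exact runs were counted. A run of at least 75 bases was shared by 129 of the 204. Igkv17-121, which led a library, was 97.5% identical to Igkv17-127, with a longest shared run of 143 bases. Iglv1 and Iglv2, which recur below, were identical at 97.0% of 305 positions of their last coding exon, with a longest shared run of 104 bases. They differ at 9 positions, of which 5 lie in the last 150 bases, shown here with those 5 in capitals.
Iglv1, chr16:19085017-19085166, minus strand: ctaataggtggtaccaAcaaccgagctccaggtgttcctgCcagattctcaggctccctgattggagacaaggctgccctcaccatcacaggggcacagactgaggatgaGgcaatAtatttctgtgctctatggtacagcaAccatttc
Iglv2, chr16:19260401-19260550, minus strand: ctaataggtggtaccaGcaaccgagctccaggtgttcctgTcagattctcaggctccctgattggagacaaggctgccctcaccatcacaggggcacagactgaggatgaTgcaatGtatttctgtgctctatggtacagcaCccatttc

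Levels are given as FPKM, fragments scaled to gene length and library depth, as the authors deposited them. The depth recovered from the values was 27.7 to 35.5 M fragments per library, an estimate, and 3 fragments on a segment of median length came to 0.235 to 0.302 FPKM. Thpo itself was listed at 0 in all 6 KO libraries and in 4 of the 6 WT libraries, with a highest value of 0.0426 FPKM, so that it does not check the labels. Of 16 stem cell genes 12 were lower and none was higher in untreated KO than in untreated WT libraries (limma, adjusted p under 0.05), where 22.1% of all tested genes were higher and 23% lower. In the same comparison 10 of 11 T and NK cell genes, 10 of 12 myeloid genes and 6 of 9 erythroid genes were higher. The untreated KO libraries thus carried transcripts of several blood lineages beside those of stem cells, and in bulk RNA more cells of a type and more RNA per cell cannot be told apart.

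Most V segments were detected in untreated KO libraries and few in untreated WT libraries. Heavy segments at an FPKM of at least 1 numbered 50, 62 and 79 in the 3 untreated KO libraries, against 3, 2 and 1 in untreated WT libraries. Kappa segments at that level numbered 57, 67 and 81 in untreated KO libraries, against 3, 1 and 3 in untreated WT libraries. All 3 lambda segments reached it in each untreated KO library, against 2, 1 and 1 in the untreated WT libraries. The groups did not overlap in any class.

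Fewer segments were detected in KO mice given Romiplostim. In KO mice given the drug, heavy segments at an FPKM of at least 1 numbered 4, 17 and 41, and kappa segments 11, 23 and 44, with 3 lambda segments in each library. In WT mice given the drug there were 6, 6 and 3 heavy, 10, 8 and 3 kappa and 2, 1 and 1 lambda segments. Every treated KO library had fewer heavy and kappa segments at that level than every untreated KO library. Heavy counts of treated KO and treated WT libraries overlapped, since the lowest treated KO count lay within the treated WT range.

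**Figure D1:**
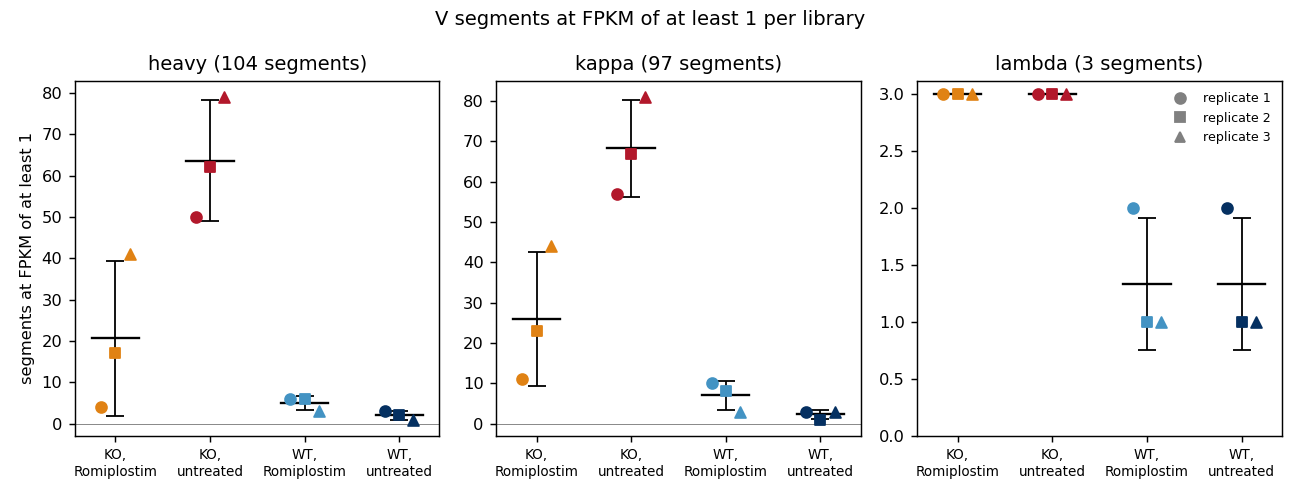
Number of V segments at an FPKM of at least 1 in each library (y axis), with heavy, kappa and lambda segments in separate panels. Points are libraries, long bars are group means and error bars are SDs (n = 3); the 3 untreated KO libraries had 50 to 79 heavy segments and the 3 untreated WT libraries 1 to 3.

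Averaged over libraries, 63.7 ± 14.6 heavy segments were at an FPKM of at least 1 in untreated KO and 2 ± 1 in untreated WT libraries (SD, n = 3 each). The kappa number was 68.3 ± 12.1 in untreated KO and 2.33 ± 1.15 in untreated WT libraries. The threshold of 1 FPKM corresponds to 9.95 to 12.8 fragments on a segment of median length. Just under it lay Igkv12-89 at 0.987 in the first untreated KO library and Ighv6-3 at 0.994 in the third treated WT library. Just over it lay Igkv6-25 at 1.01 in the third treated KO library and Ighv1-16 at 1.01 in the first untreated KO library. Of all 2448 values, 131 lay between 0.5 and 1 and 116 between 1 and 2.

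Detection over the whole class can be stated per segment. There were 8 segments listed at 0 in all 12 libraries, among them Ighv7-2, Ighv16-1 and Igkv1-131, and 31 that reached 1 FPKM in no library. In contrast, 102 segments reached it in all 3 untreated KO libraries, against 3 in all 3 untreated WT libraries. The corresponding numbers were 12 in the treated KO and 2 in the treated WT group. Counting any library of a group, 103 segments reached it in treated KO, 169 in untreated KO, 32 in treated WT and 10 in untreated WT mice.

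Summed over segments, the heavy chain level was 734, 1198 and 673 FPKM in untreated KO libraries, against 26.8, 7.87 and 9.86 FPKM in untreated WT libraries. The kappa sum was 1536, 2996 and 2367 FPKM in untreated KO libraries, against 35.4, 14.3 and 11.3 FPKM in untreated WT libraries. The lambda sum was 115, 155 and 603 FPKM in untreated KO libraries, against 2.52, 1.74 and 2.42 FPKM in untreated WT libraries. The lowest untreated KO sum exceeded the highest untreated WT sum in each class. In untreated KO libraries V segments took 0.315%, 0.565% and 0.446% of the FPKM of the whole table.

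The third treated KO library stood apart from the other 2 of its group. The heavy sum was 123, 229 and 1834 FPKM in treated KO libraries, against 122, 178 and 26.7 FPKM in treated WT libraries. The kappa sum was 479, 865 and 7215 FPKM in treated KO libraries, against 332, 350 and 37.3 FPKM in treated WT libraries. Over all 204 segments the third treated KO library held 10473 FPKM, or 1.20% of its table, and was the only treated KO library above the untreated KO range of 2385 to 4350 FPKM. The other 2 treated KO libraries, at 624 and 1603 FPKM, lay below that range, so that the group mean of 4233 ± 5425 FPKM in treated KO, against 3459 ± 995 FPKM in untreated KO libraries (SD, n = 3 each), rests on the third library.

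Among wild types the sums under the drug lay higher, at 476, 545 and 154 FPKM over all segments in treated WT libraries, against 64.7, 23.9 and 23.6 FPKM in untreated WT libraries. These ranges did not overlap. The numbers of segments at 1 FPKM or more did, at 18, 15 and 7 in treated WT libraries, against 8, 4 and 5 in untreated WT libraries. No p is given for sums or counts, which are scores over the members.

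**Figure D2:**
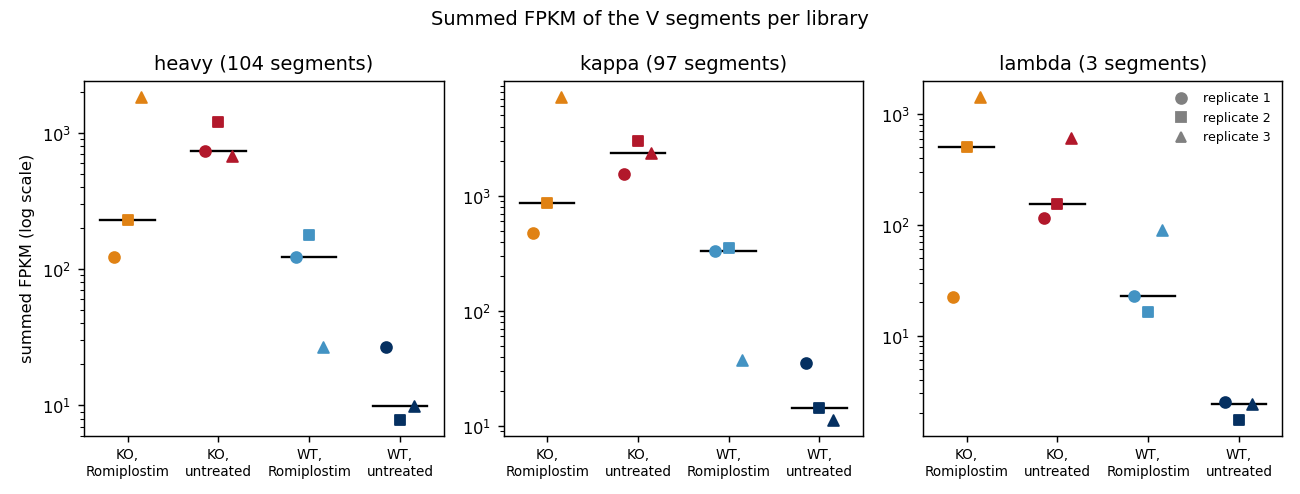
Summed FPKM of heavy, kappa and lambda V segments in each library on a log scale (y axis), with a bar at the group median. The third treated KO library, a triangle, lies highest in each class, with 1834 FPKM for heavy and 7215 FPKM for kappa segments.

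The next question is how evenly these sums were spread over segments. In the treated KO libraries 3, 18 and 21 heavy segments were needed to reach 90% of the heavy sum, against 23, 27 and 52 in the untreated KO libraries. In the treated WT libraries the number was 5, 6 and 5. For kappa the numbers were 3, 3 and 23 in treated KO, 17, 10 and 49 in untreated KO and 6, 6 and 3 in treated WT libraries. The high sum of the treated WT libraries was thus carried by few segments, and that of the untreated KO libraries by many.

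The untreated WT libraries differed among themselves. The first had 90% of its heavy sum in 3 segments and of its kappa sum in 3, while the second and the third needed 20 and 31 heavy and 21 and 27 kappa segments. The second and the third held few V fragments, an estimated 268 and 262 over all segments, and the first held 845. Detected segments in the second and the third mostly lay below 1 FPKM.

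**Figure D3:**
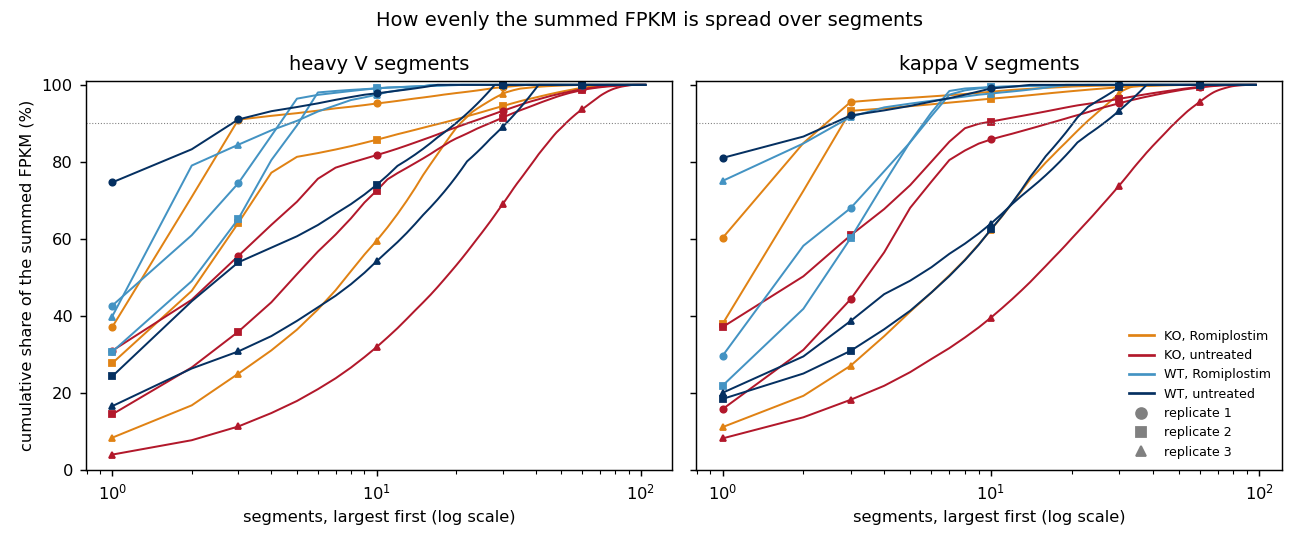
Cumulative share of the summed FPKM (y axis, %) against the number of segments, largest first (x axis, log scale), for heavy and kappa segments in each library; the dotted line marks 90%. The third untreated KO library, red with triangles, rises most slowly and needs 52 heavy and 49 kappa segments to reach the line.

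Each library had its own leading heavy segment, with few repeats. In untreated KO libraries these were Ighv5-4 at 227 FPKM (31.0% of the heavy sum), Ighv5-17 at 173 FPKM (14.5%) and Ighv7-1 at 27.1 FPKM (4.02%). In untreated WT libraries they were Ighv3-6 at 20.02 FPKM (74.7%) and, in the other two, Ighv6-6 at 1.91 FPKM (24.3%) and 1.64 FPKM (16.6%). Ighv6-6 was the only heavy segment that led more than 1 of the 12 libraries.

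In treated KO libraries the leading heavy segments were Ighv7-3 at 45.7 FPKM (37.1%), Ighv11-2 at 63.5 FPKM (27.7%) and Ighv8-12 at 154 FPKM (8.41%). In treated WT libraries they were Ighv1-64 at 52.1 FPKM (42.7%), Ighv9-3 at 54.8 FPKM (30.7%) and Ighv1-26 at 10.6 FPKM (39.9%). Such a leader was often near 0 elsewhere in its own group. Ighv7-3, for example, had 45.7, 0.55 and 0.00 FPKM in the treated KO libraries.

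The kappa leaders were again different in nearly every library. In untreated KO libraries they were Igkv12-44 at 243 FPKM (15.8% of the kappa sum), Igkv6-15 at 1112 FPKM (37.1%) and Igkv1-117 at 195 FPKM (8.23%). In untreated WT libraries they were Igkv5-43 at 28.7 FPKM (81.0%) and, in the other two, Igkv2-137 at 2.64 FPKM (18.5%) and 2.28 FPKM (20.1%). The value of Igkv6-15 in the second untreated KO library compares with 10.4 and 130 FPKM in the other 2 libraries of its group.

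Under Romiplostim the kappa leaders in KO mice were Igkv9-124 at 289 FPKM (60.3%), Igkv4-74 at 328 FPKM (37.96%) and Igkv17-121 at 805 FPKM (11.2%). In WT mice given the drug they were Igkv6-23 at 98.4 FPKM (29.7%), Igkv4-72 at 76.8 FPKM (21.9%) and Igkv4-86 at 28.0 FPKM (75.1%). Igkv9-124 shows the contrast among libraries, with 289, 0.39 and 0.00 FPKM in treated KO libraries, against 177, 1.41 and 16.4 FPKM in untreated KO libraries.

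The segments with the highest group means differed between groups, and most of these means had an SD of about their own size or more. The highest heavy means were those of Ighv1-64 at 54.3 ± 32.7, Ighv1-5 at 51.7 ± 88.8 and Ighv8-12 at 51.5 ± 88.9 FPKM in treated KO libraries (SD, n = 3 here and in the next values). In untreated KO libraries they were those of Ighv5-17 at 82.9 ± 81.3, Ighv5-4 at 80.1 ± 128 and Ighv9-3 at 58.1 ± 76.5 FPKM. In treated WT libraries Ighv1-64 averaged 26.5 ± 26.1, Ighv9-3 18.4 ± 31.6 and Ighv1-39 11.0 ± 18.9 FPKM. Among untreated WT libraries the low segments Ighv6-6, at 1.95 ± 0.34, and Ighv6-3, at 1.53 ± 0.56 FPKM, were exceptions with little spread, beside Ighv3-6 at 6.81 ± 11.4 FPKM.

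For kappa the highest means in treated KO libraries were those of Igkv17-121 at 269 ± 465, Igkv14-126 at 207 ± 179 and Igkv15-103 at 196 ± 338 FPKM. In untreated KO libraries they were those of Igkv6-15 at 417 ± 605, Igkv1-135 at 151 ± 151 and Igkv8-30 at 146 ± 61.1 FPKM. In treated WT libraries Igkv6-23 averaged 45.3 ± 49.7, Igkv12-41 31.6 ± 54.7 and Igkv4-72 25.7 ± 44.3 FPKM. Among these 9, the SD was below the mean for Igkv14-126, Igkv8-30 and, narrowly, Igkv1-135, and above it for the others. The highest kappa means in untreated WT libraries were low: Igkv5-43 averaged 9.62 ± 16.5, Igkv2-137 2.29 ± 0.34 and Igkv4-59 0.646 ± 1.12 FPKM.

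Segments at an FPKM of at least 10 were mostly found in 1 library of a treated group. In treated KO mice 32 heavy segments reached 10 FPKM in some library, and 29 of them in 1 library only. In treated WT mice 12 heavy segments did so, 11 of them in 1 library only. For kappa the numbers were 34 of 37 in treated KO and 13 of 14 in treated WT mice. The treated KO numbers rest mostly on the third library, which had 29 heavy and 34 kappa segments at that level. The first and the second had 3 and 4 heavy and 3 and 3 kappa segments. In untreated KO mice 19 of 35 heavy and 37 of 57 kappa segments did so in 1 library only, while 17 segments (4 heavy, 10 kappa and 3 lambda) reached 10 FPKM in all 3 libraries.

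Those 17 segments were present together in each untreated KO library but at very unequal levels. Among the heavy ones Ighv5-17 had 59.3, 173 and 16.0 FPKM and Ighv14-2 had 21.2, 49.3 and 25.1 FPKM in untreated KO libraries. Among the kappa ones Igkv8-30 had 202, 155 and 80.8 FPKM and Igkv14-126 had 236, 12.3 and 41.2 FPKM there. In untreated WT libraries none of these 4 segments exceeded 0.842 FPKM.

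**Figure D4:**
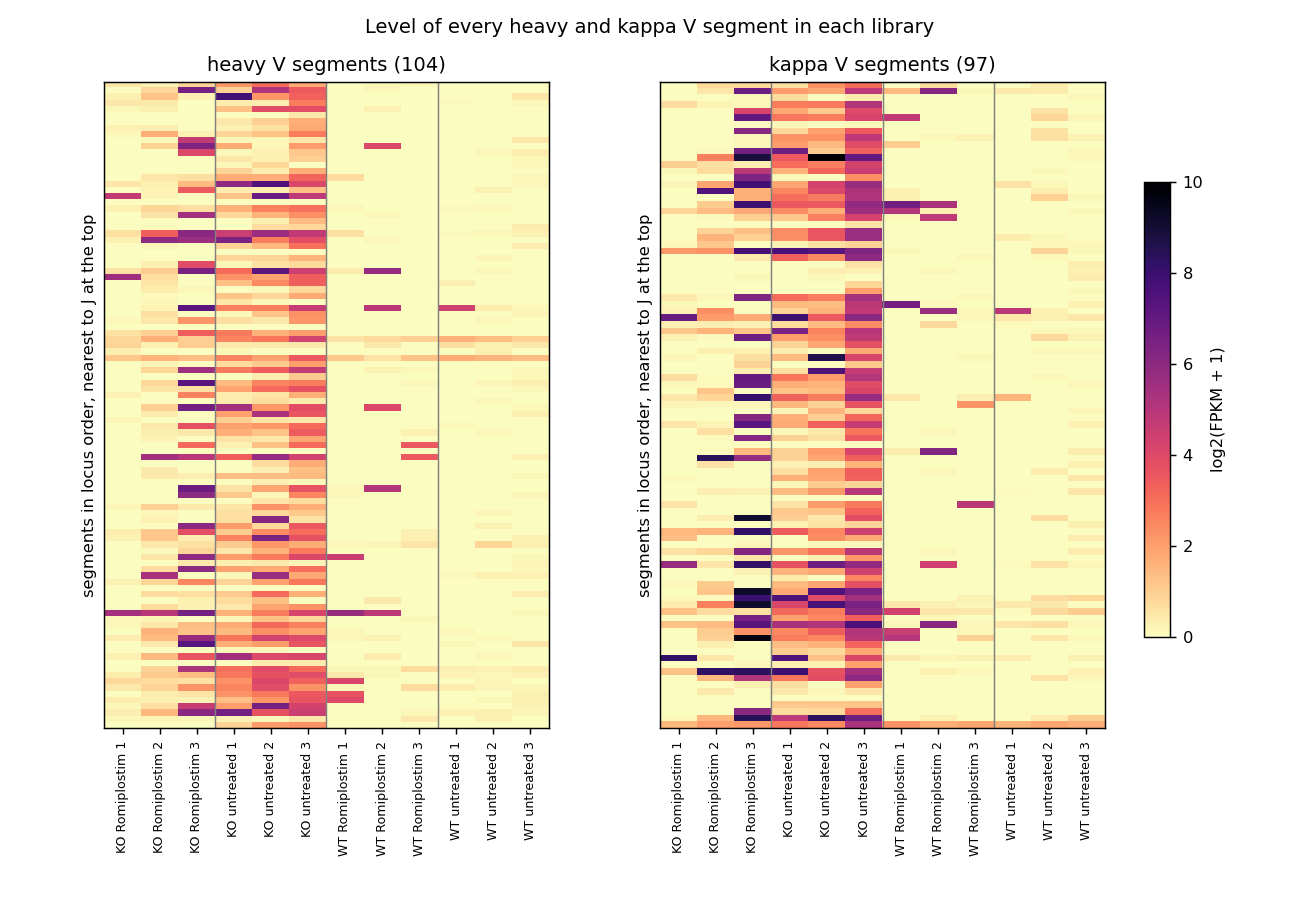
Level of each heavy (104) and kappa (97) segment as log2(FPKM + 1), colour scale from 0 to 10, with segments in locus order, those nearest to the J segments at the top, and libraries in columns. Untreated KO libraries are filled along both loci, while treated WT libraries show isolated dark cells, such as Ighv1-64 at 52.1 FPKM in the first.

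A few segments recurred across groups. Ighv1-64 had 41.6, 29.9 and 91.4 FPKM in treated KO libraries, against 2.07, 5.50 and 17.4 FPKM in untreated KO libraries. It was the only segment whose treated KO values all exceeded its untreated KO values. In WT mice it had 52.1, 27.3 and 0.00 FPKM with Romiplostim, against 0.00, 0.00 and 0.10 FPKM without. The log2(FPKM + 1) difference in KO mice was 2.79 ± 1.17 and did not pass (limma, adjusted p = 0.0900). It was 3.47 ± 1.17 in WT mice (limma, adjusted p = 0.197), and without the third treated WT library it was 5.23 ± 0.64 (limma, adjusted p = 0.00623). Ighv1-64 was at 0.00 FPKM in the library left out, so leaving it out could only enlarge the difference.

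Iglv1, the lambda segment with the highest level in 11 of 12 libraries, was at 1 FPKM or more in all of them. It had 18.4, 287 and 1320 FPKM in treated KO libraries, against 51.6, 110 and 335 FPKM in untreated KO libraries. In WT mice it had 21.3, 15.8 and 89.4 FPKM with Romiplostim, against 1.21, 1.46 and 1.76 FPKM without, and these ranges did not overlap. The WT difference was 3.71 ± 1.22 on the log2(FPKM + 1) scale and did not pass with all groups in the fit (limma, adjusted p = 0.188). Same-numbered WT libraries deviated together, though the labels do not say that a replicate number pairs libraries. In an unplanned fit with that number as a block in the WT groups alone, the same difference had an SE of 0.45 and passed (limma, adjusted p = 0.0260). It passed likewise with the WT groups alone and no block, with an SE of 0.60 (limma, adjusted p = 0.0244), and did not with the block over all 4 groups (limma, adjusted p = 0.0689). In the blocked WT fit 3.06% of all tested genes were higher and 3.68% lower.

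Iglv2, unlike Iglv1, was near 0 in treated WT libraries. Iglv2 had 1.97, 215 and 77.9 FPKM in treated KO, 47.4, 19.9 and 177 FPKM in untreated KO and 0.00, 0.00 and 0.28 FPKM in treated WT libraries. Iglv1 made up 94.4%, 96.5% and 99.6% of the lambda sum in treated WT libraries. Lambda took 4.45%, 37.1% and 16.5% of the light chain sum in treated KO libraries, 6.96%, 4.92% and 20.3% in untreated KO libraries and 6.37%, 4.47% and 70.7% in treated WT libraries. The 70.7% came from the treated WT library with the smallest kappa sum, 37.3 FPKM.

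At the low end, Igkv2-137, the kappa segment farthest from the J segments, was the only other member at 1 FPKM or more in all 12 libraries. It had 1.79, 3.03 and 3.43 FPKM in treated KO, 6.03, 4.47 and 37.6 FPKM in untreated KO, 3.73, 2.23 and 2.58 FPKM in treated WT and 1.96, 2.64 and 2.28 FPKM in untreated WT libraries. All 3 untreated KO values thus lay above those of the other 9 libraries, which spanned 1.79 to 3.73 FPKM. Ighv6-6 lay at a similar level, with 2.31, 1.91 and 1.64 FPKM in untreated WT libraries, and its neighbour Ighv6-3 had 2.07, 1.54 and 0.97 FPKM there. The last coding exons of Ighv6-3 and Ighv6-6 were 92.6% identical, with a longest shared run of 71 bases.

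Along the loci no library group was limited to segments close to the J segments. In untreated KO libraries the 35 heavy segments nearest to J, within 794 kb, held 57.9%, 47.8% and 32.1% of the heavy sum, and the 34 farthest, beyond 1626 kb, held 28.3%, 39.4% and 36.7%. The 33 kappa segments nearest to J held 26.6%, 46.7% and 36.6% of the kappa sum there, and the 32 farthest held 49.1%, 31.4% and 42.0%. In treated WT libraries the nearest heavy segments held 1.31%, 39.6% and 0.345%, so that shares followed the few leading segments.

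By family, the 49 segments of Ighv1, 47.1% of all heavy segments, held 37.1%, 48.2% and 50.2% of the heavy sum in untreated KO libraries. They held 97.2%, 43.0% and 88.2% in treated WT libraries. The 26 segments of Igkv4, 26.8% of all kappa segments, held 2.92%, 21.2% and 13.1% of the kappa sum in untreated KO libraries. Family shares lay near the share of segments for Ighv1 in untreated KO libraries and below it for Igkv4.

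How far libraries of a group shared their high segments was described by Pearson's r of log2(FPKM + 1) across the 104 heavy or the 97 kappa segments. Between treated KO libraries r was 0.0373 to 0.337 for heavy and 0.0766 to 0.292 for kappa segments. Between untreated KO libraries it was 0.561 to 0.692 for heavy and 0.525 to 0.739 for kappa segments. The untreated WT libraries gave 0.394 to 0.703 for heavy and 0.131 to 0.538 for kappa segments. These ranges overlapped those of the untreated KO libraries. Between treated WT libraries it was -0.0408 to 0.205 for heavy and -0.00136 to 0.182 for kappa segments. These are descriptions across segments, which share reads and loci, and libraries with more segments near 0 have fewer values to correlate.

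Segment by segment, levels were tested on log2(FPKM + 1) with limma over the 12823 genes that reached 1 FPKM in at least 3 libraries, with 5 contrasts and an adjusted p under 0.05 as the criterion. Of the 204 members 120 entered (55 heavy, 62 kappa and 3 lambda). A segment could enter through its untreated KO libraries alone, as 22 did (11 heavy and 11 kappa), so that a difference from the other groups was then built into the selection. Only 24 of the 120 reached 1 FPKM in at least 3 libraries outside the untreated KO group. In untreated KO against untreated WT libraries 78 of the 120 rose and none fell, where 22.1% of all tested genes rose and 23% fell. The 78 were 38 heavy, 37 kappa and all 3 lambda segments, and the median log2 difference over the 120 was 2.89, beside -0.03 over all tested genes. Without the 22 it was 56 of 98, and among the 24 it was 17. With the second untreated KO library left out 45 of 90 tested segments rose, and with the third left out 38 of 86. Of all tested genes 2172 of 12558 and 2480 of 12529 rose in those 2 fits. Where a segment had to reach 5 FPKM in 3 libraries it was 39 of 60, and 2160 of 9487 genes rose. That filter too can be passed through the untreated KO libraries alone, as by Igkv8-16, so that it does not remove the built-in difference. How many of the 60 entered in this way was not counted.

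The segments with the smallest adjusted p were Ighv1-75, Igkv8-16, Igkv1-132, Ighv5-17 and Ighv1-36. Of these, Igkv8-16, Igkv1-132 and Ighv1-36 were among the 22 that entered through the untreated KO libraries alone, so that their tests add nothing to the selection, and Ighv1-75 and Ighv5-17 reached 1 FPKM in only 2 and 1 of the other 9 libraries. Ighv1-75 had 6.12, 12.4 and 13.8 FPKM in untreated KO libraries, against 0.16, 0.10 and 0.20 FPKM in untreated WT libraries, a log2 difference of 3.29 ± 0.29 (limma, adjusted p = 1.3e-05). Ighv5-17 had 59.3, 173 and 16.0 FPKM in untreated KO libraries, against 0.00, 0.00 and 0.10 FPKM in untreated WT libraries, a difference of 5.77 ± 0.61 (limma, adjusted p = 3.7e-05). Igkv8-16 had 7.21, 5.41 and 18.4 FPKM in untreated KO libraries and was listed at 0 in all untreated WT libraries. Igkv1-132, at 1.19 to 1.35 FPKM, and Ighv1-36, at 1.52 to 1.70 FPKM, lay just above the threshold in untreated KO libraries. Ighv5-17 had the highest heavy mean there and varied widely. Igkv6-15, at 10.4, 1112 and 130 FPKM in untreated KO libraries, against 0.00, 0.00 and 0.10 FPKM in untreated WT libraries, differed by 6.84 ± 1.90 (limma, adjusted p = 0.0121).

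Without a filter or a model, 152 of all 204 members (74.5%) had all 3 untreated KO values above all 3 untreated WT values, and none had them below. Among all 35275 genes 14% lay above in this way and 13.8% below. By class these were 76 of 104 heavy, 73 of 97 kappa and 3 of 3 lambda segments.

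In KO mice more segments were lower than higher with Romiplostim, but the number depended on how segments entered the test. Against untreated KO libraries, 42 of 120 tested segments (22 heavy and 20 kappa) fell in treated KO libraries and none rose, where 18.9% of all tested genes fell and 10.7% rose. The median log2 difference over the 120 was -1.55, beside -0.09 over all tested genes. The 22 segments that entered through the untreated KO libraries alone could only be lower here. Without them 20 of 98 fell, with a median of -1.30, and among the 24 that reached 1 FPKM in at least 3 libraries outside that group 5 fell, so that both shares lay near that of all tested genes. Ighv1-75 had 0.31, 1.12 and 1.54 FPKM in treated KO libraries, against 6.12, 12.4 and 13.8 FPKM in untreated KO libraries, and fell by 2.55 ± 0.29 on the log2(FPKM + 1) scale (limma, adjusted p = 0.000151). Ighv5-17 had 0.41, 0.24 and 1.63 FPKM in treated KO libraries and fell by 5.08 ± 0.61 (limma, adjusted p = 0.000205). Igkv1-132 was listed at 0 in all 3 treated KO libraries and had 1.19, 1.20 and 1.35 FPKM in the untreated KO libraries.

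The number of segments past the criterion in that comparison depended on the libraries. It was 69 of 113 tested without the third treated KO library, where 1572 of 12770 genes fell. Without the first, the second and the third untreated KO library it was 22 of 94, 18 of 90 and 16 of 86. Of all tested genes 1378 of 12573, 1518 of 12558 and 2012 of 12529 fell in those fits. With weights for library quality it was 73 of 120, of which 26 were higher and 47 lower. In that weighted fit 2716 of 12823 genes were higher and 4422 lower. Over all 204 members, 70 (34.3%) had all treated KO values below all untreated KO values and 1, Ighv1-64, had them above, where 13.2% and 7.09% of all genes did so.

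In WT mice none of the 120 tested segments passed between Romiplostim and no treatment (limma), and 2 had an unadjusted p under 0.05. Of all tested genes 0.866% rose and 0.975% fell in this comparison. A single segment passed in 5 other settings. It was Iglv1 in the blocked WT fit given above, with the WT groups fitted alone, with library weights and without the first treated KO library, and Ighv1-64 without the third treated WT library. Only Iglv1 had all 3 treated values above all 3 untreated values, while 4 of 204 members (1.96%) had them below, where 4.81% and 8.86% of all genes did so. The 4 were Ighv6-6, Ighv1-59, Ighv1-82 and Igkv12-44, and 3 of them were under 0.5 FPKM in each of these WT libraries.

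Between treated KO and treated WT libraries, again none of the 120 passed (limma), and 18 had an unadjusted p under 0.05, where 0.632% of all tested genes rose and 0.741% fell. The median log2 difference was 0.99, beside -0.07 over all tested genes. The number past the criterion was 8, 3 and 1 without the first, the second and the third treated KO library, and 64 with library weights, all of them higher. Of all tested genes 137 of 12794, 325 of 12778 and 86 of 12770 were higher in the first 3 of these fits. With library weights 1306 of 12823 genes were higher and 3021 lower. Of all 204 members, 33 (16.2%) had all treated KO values above all treated WT values, and none had them below, beside 4.84% and 7.35% of all genes.

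The Romiplostim difference itself differed between genotypes for 25 of 120 segments (13 heavy and 12 kappa), all more negative in KO mice, where 10% of all tested genes had a more negative and 5.53% a more positive difference. Without the 22 segments that entered through the untreated KO libraries alone it was 9 of 98, and among the 24 it was 1, so that neither stood above that share. The same 5 segments had the smallest adjusted p. For Ighv1-75 the difference between the genotypes' drug effects was -2.55 ± 0.41 (limma, adjusted p = 0.00387). Since these segments were near 0 in all 6 WT libraries, this contrast largely repeats the one within KO mice and shares its libraries. Without each untreated KO library in turn the number was 10 of 94, 7 of 90 and 7 of 86 tested. Of all tested genes 717 of 12573, 719 of 12558 and 1067 of 12529 had a more negative difference in those fits. The number of segments was 15 and 16 without the third and the second untreated WT library, and 16 without the first or the second treated WT library.

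Constant region genes are transcribed together with the rearranged V segment. Igkc, the kappa constant region, had 1223, 1953 and 24770 FPKM in treated KO, 4556, 7737 and 5823 FPKM in untreated KO, 1518, 1203 and 87.7 FPKM in treated WT and 128, 33.1 and 14.6 FPKM in untreated WT libraries. The third treated KO library was thus highest for Igkc as for the kappa sum. Of the 8 tested members of the constant and joining chain list, 4 rose in untreated KO against untreated WT libraries, where 22.1% of all tested genes did. These were Ighm, Ighg2b, Igkc and Iglc2.

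The heavy chain class differed between libraries. Ighm, the constant region of IgM, had 17.5, 573 and 496 FPKM in treated KO, 1218, 2352 and 1459 FPKM in untreated KO, 6.12, 9.19 and 7.44 FPKM in treated WT and 5.76, 5.95 and 6.45 FPKM in untreated WT libraries. Igha, the constant region of IgA, had 181, 2.53 and 4105 FPKM in treated KO, 418, 376 and 14.4 FPKM in untreated KO, 69.3, 62.3 and 42.7 FPKM in treated WT and 29.9, 0.83 and 0.37 FPKM in untreated WT libraries. The ratio of Igha to Ighm was 10.4, 0.00441 and 8.28 in treated KO, 0.343, 0.160 and 0.00987 in untreated KO and 11.3, 6.78 and 5.73 in treated WT libraries. In untreated WT libraries it was 5.19 in the first, where Ighv3-6 and Igkv5-43 led, and 0.139 and 0.0567 in the other 2.

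IgG genes were likewise uneven. Ighg2b had 0.50, 3.90 and 332 FPKM in treated KO, 280.0, 201 and 18.7 FPKM in untreated KO, 126, 77.4 and 1.85 FPKM in treated WT and 0.65 FPKM or less in untreated WT libraries. It was thus high in at least 1 library of each group but the last. Ighg1 had 117 FPKM in the first treated KO library and 35.5 FPKM in the first treated WT library, and 7.64 FPKM or less in all others. Ighg2c had 378 FPKM in the third treated KO library and 54.5 and 140 FPKM in the first and the second treated WT library. Prdm1, a transcription factor of plasma cells, was at 0.792 FPKM or less in all 12 libraries. It was 1 of 16 genes of a plasma cell list, and the list as a whole was not low. Its summed FPKM was 2347 in the third treated KO library, of which Jchain, described next, made 1434. In the other libraries the list sum was 793 to 1451 FPKM.

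Jchain, which links IgA and IgM into polymers and marks antibody-secreting cells, and Cd79a, a signalling chain of the B cell receptor, separated the libraries in another way. Jchain had 61.7, 169 and 1434 FPKM in treated KO, 164, 341 and 1.80 FPKM in untreated KO, 40.0, 51.0 and 14.1 FPKM in treated WT and 12.6, 1.02 and 0.59 FPKM in untreated WT libraries. Cd79a had 15.9, 122 and 52.9 FPKM in treated KO, 406, 960 and 1011 FPKM in untreated KO, 1.33, 1.95 and 2.54 FPKM in treated WT and 4.43, 4.97 and 5.45 FPKM in untreated WT libraries. In treated WT libraries Cd79a was therefore lower than in untreated ones while the V sum was higher. The third untreated KO library combined the most V segments with the highest Cd79a and a Jchain level of 1.80 FPKM.

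Per unit of Cd79a the V sum was 39.2, 13.2 and 198 in treated KO, 5.88, 4.53 and 3.60 in untreated KO, 357, 279 and 60.6 in treated WT and 14.6, 4.81 and 4.34 in untreated WT libraries. Every treated library exceeded every untreated library of its own genotype. Jchain per unit of Cd79a was 3.88, 1.39 and 27.1 in treated KO, 0.404, 0.355 and 0.00178 in untreated KO and 30.0, 26.1 and 5.57 in treated WT libraries. In untreated WT libraries it was 2.85 in the first and 0.205 and 0.109 in the other 2.

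**Figure D5:**
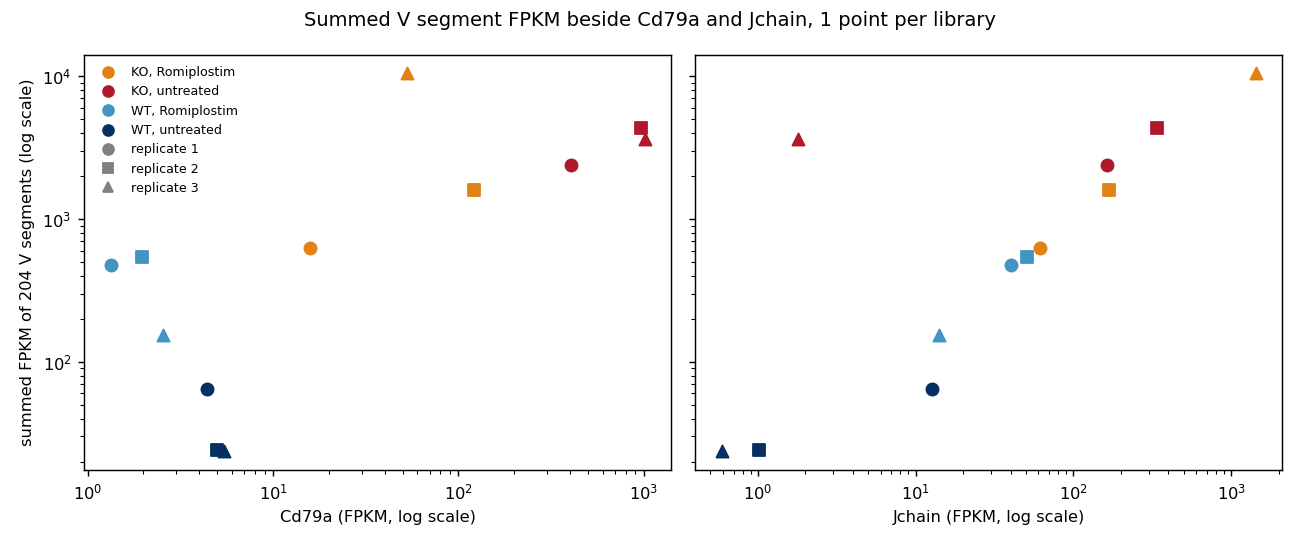
Summed FPKM of the 204 V segments (y axis, log scale) against the FPKM of Cd79a (left) and of Jchain (right), both on log scales, with 1 point per library. At right 11 libraries lie along a band from 0.59 to 1434 FPKM of Jchain, with the third untreated KO library apart at 1.80 FPKM; at left the treated WT libraries lie at the lowest Cd79a levels, 1.33 to 2.54 FPKM.

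Genes of early B cell development were high in the same untreated KO libraries. In untreated KO against untreated WT libraries 13 of 19 tested genes of the pre-B receptor and V(D)J recombination rose and 1 fell, the DNA end-joining factor Xrcc4, where 22.1% of all tested genes rose and 23% fell. Vpreb1, part of the surrogate light chain, had 292, 849 and 226 FPKM in untreated KO libraries, against 6.56, 7.33 and 7.76 FPKM in untreated WT libraries. Rag2, a subunit of the recombinase, had 12.8, 34.6 and 8.94 FPKM in untreated KO libraries, against 0.23, 0.05 and 0.27 FPKM in untreated WT libraries. In treated WT libraries Rag2 was at 0.0974 FPKM or less, below each untreated KO library.

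Genes of later stages were counted in the same fits, in which 22.1% of all tested genes rose and 23% fell in untreated KO against untreated WT libraries, and 10.7% rose and 18.9% fell in treated against untreated KO libraries. Of 15 tested mature B cell genes 13 rose in untreated KO against untreated WT libraries, and all 15 fell in treated KO against untreated KO libraries. Ms4a1, the B cell surface protein CD20, had 0.76, 4.76 and 3.66 FPKM in treated KO libraries, against 24.9, 28.5 and 117 FPKM in untreated KO libraries. Among 17 tested B-lineage transcription factors 12 rose in untreated KO against untreated WT libraries and 10 fell in treated against untreated KO libraries. In the plasma cell list 5 of 13 tested genes rose and 1 fell in untreated KO against untreated WT libraries, a higher and a lower share than among all tested genes. In treated against untreated KO libraries 1 rose and 3 fell, numbers near the share of all tested genes. The plasma cell gene that fell in the first of these comparisons and rose in the second was Fkbp11, a chaperone of the secretory pathway that other cells also express. In treated against untreated WT libraries 1 plasma cell gene, the signal peptidase subunit Sec11c, rose, and no gene of the mature B cell, pre-B receptor or transcription factor lists passed (limma).

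Lists of other lineages also differed between libraries, not always in the same order as the V segments, and their part in the V segment results was not tested. The summed FPKM of 9 erythroid genes, for example, was 1291 in the second untreated KO library and 1329 in the second untreated WT library. The summed FPKM of 12 myeloid genes was 3284 to 4745 in treated KO, 8178 to 40436 in untreated KO, 2133 to 6735 in treated WT and 1941 to 4255 in untreated WT libraries. The third untreated KO library, which had the most V segments, was also highest for myeloid genes, at 40436 FPKM, and for erythroid genes, at 14095 FPKM. The third treated KO library, highest in summed V level, had 4745 FPKM of myeloid genes, below each untreated KO library.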

How the data were processed

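The authors deposited 1 table of FPKM values, with a column for each library and no raw counts. The submitters' processing notes list TopHat2, Cufflinks 2.2.1 and the build mm10, with no role or order. Per the labels' protocols cDNA was amplified from sorted cells with the SMARTer Ultra Low RNA Kit. Whether counting used the strand is not given in the sources used here. Of 35275 Ensembl identifiers 34490 matched GENCODE M21 (GRCm38, the same build), which supplied symbols, gene types, positions and transcript sequences. Promoters and recombination signals of V segments were not analysed here. No 2 columns were identical. Depth was recovered from low FPKM values, on the assumption that these fall on multiples of 1 fragment. In each library 56.2% to 60.7% of the values used came out whole within 0.05. Among low V segment values 26.7% to 58.1% did. Fragment numbers are therefore estimates, and they cover counting error only.

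Values were converted to log2(FPKM + 1), which understates the change of low genes. Genes that reached 1 FPKM in 3 or more libraries were fitted with limma 3.58.1 (R 4.3.3) with group means over all 12 libraries and an intensity trend, tested two-sided and adjusted by Benjamini-Hochberg within each of 5 contrasts. The contrasts share libraries. An exact test of 3 against 3 cannot go below a p of 0.1. The code was tested on simulated data. Alternatives changed the pseudocount, filter, scaling, trend, weights, libraries and block. Same-numbered libraries deviated together between the WT groups (correlations of 0.403, 0.123 and 0.383 over 12823 genes) and in no other pair of groups by the same rule, every correlation above 0.1.

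Members, lists and alternatives were chosen with earlier results of these data known. Segments named are the leader of each class per library, those with the highest group means and the 5 with the smallest adjusted p per contrast, together with the constant region genes; the segments at 10 FPKM or more in whole groups, those that recur across groups and those near the threshold were named after their values were seen.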

Additional observations from a re-analysis of the deposited data

Results flagged for a closer look

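The effect of Romiplostim differed between the genotypes for 25 of 120 tested V segments by the interaction term (limma, adjusted p under 0.05), where the difference was more negative in KO mice for 10% of all tested genes and more positive for 5.53%. Igkv1-132, Igkv8-16 and Ighv1-36 are among 22 segments that entered the test through the untreated KO libraries alone, which builds in a negative value, and without those 22 the number was 9 of 98. Each of the 25 was more negative in KO than in WT mice, and the 5 with the smallest adjusted p were below 1 FPKM in all 6 WT libraries. On the log2(FPKM + 1) scale the difference of effects, KO minus WT, was -1.17 for Igkv1-132, -2.55 for Ighv1-75, -5.04 for Ighv5-17, -2.68 for Igkv8-16 and -1.07 for Ighv1-36. For Ighv1-36 the underlying values were 0.00, 0.32 and 0.27 FPKM in treated KO libraries, against 1.52, 1.52 and 1.70 FPKM in untreated KO libraries. These values lie near 1 FPKM, and the call was lost with a pseudocount of 0.1.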

How the results depend on the processing

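The 15 results for the 5 segments with the smallest adjusted p kept direction and criterion in 294 of the 295 alternative values in which the segment was tested. The exception was Ighv1-36 in the difference between genotypes with log2(FPKM + 0.1), at -2.41 (limma, adjusted p = 0.0737). Settings in which a segment failed the filter gave no value and are not among the 295. Igkv8-16, Igkv1-132 and Ighv1-36 therefore have no value in any setting without an untreated KO library. Igkv1-132 and Ighv1-36 have none with a filter of 5 FPKM. Their dependence on a single untreated KO library was thus not tested. No result reversed. A filter of 5 FPKM tests fewer segments and can also be passed through the untreated KO libraries alone. With it the number of segments past the criterion in untreated KO against WT libraries was 39. That number was 38 to 96 with 1 library left out and 37 without both KO libraries numbered 3. In treated against untreated WT libraries it was 1 with library weights, 1 with only the groups compared, 1 with the WT groups alone and the replicate block, and 0 to 1 with 1 library left out. In treated against untreated KO libraries it was 10 with that filter, 73 with weights, 16 to 69 with 1 library left out and 20 without that pair. In treated KO against treated WT libraries it was 8 with log2(FPKM + 0.1), 64 with weights, 1 with only the groups compared, 0 to 8 with 1 library left out and 2 without that pair. The difference between genotypes gave 9 with log2(FPKM + 5), 7 with that filter, 53 with weights (14 more positive and 39 more negative), 7 to 37 with 1 library left out and 10 without that pair. Weights also raised the calls among all 12823 genes. In treated against untreated KO libraries 2716 were then higher and 4422 lower. In treated KO against treated WT libraries 1306 were higher and 3021 lower. For the difference between genotypes 2699 were more positive and 3521 more negative. The causes were not tested. Counted after the data were seen without the 22 segments that entered through the untreated KO libraries alone, the numbers were 56 in untreated KO against WT, 20 in treated against untreated KO and 9 in the difference between genotypes. With the replicate number as a block over all groups the 5 numbers were 82, 0, 44, 0 and 28, and that block changed no other call by over 1.5 times.

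Counts of segments moved with the FPKM threshold. Mean heavy counts at 0.1 FPKM were 55.7 in treated KO, 90.3 in untreated KO, 16 in treated WT and 18.3 in untreated WT libraries. At 5 and 10 FPKM they were 31 and 18.3 in untreated KO, against 0.333 and 0.333 in untreated WT libraries. Mean kappa counts at 0.1 FPKM were 46 in treated KO, 84.3 in untreated KO, 15.3 in treated WT and 19.7 in untreated WT libraries. At 5 and 10 FPKM they were 41.7 and 29 in untreated KO, against 0.333 and 0.333 in untreated WT libraries. Mean lambda counts were 2.33 at 5 and 2 at 10 FPKM in treated KO, 2 at 0.1 FPKM in treated WT, and 2 at 0.1, 0 at 5 and 0 at 10 FPKM in untreated WT libraries. The order of untreated KO above untreated WT held at each of these thresholds. The 3 largest heavy segments held a mean of 60.1% in treated KO, 34.3% in untreated KO and 74.7% in treated WT libraries, and the 3 largest kappa segments 72.0%, 41.2% and 73.3%. Without the largest segment of each library the mean lambda sum was 0.734 FPKM in treated WT and 0.745 FPKM in untreated WT libraries, so that the higher treated sum rested on Iglv1. At the recovered depth, levels under 0.302 FPKM rest on about 3 fragments or fewer.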
